A study of Lachancea kluyveri with 9 samples.

Results

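Poly(A) RNA of a cells of the budding yeast Lachancea kluyveri was compared with that of a/alpha cells, over all gene models counted. Groups were taken from the cell type labels, which give 3 a libraries (strain yLB76) and 3 a/alpha libraries (strain FDy22), 6 of the 9 libraries of the series. The other 3 libraries, of alpha cells (strain yLB77), are in neither group compared. They entered the filter on low counts, the scaling factors, the estimate of the spread and the mean CPM over 9 libraries. All strains carry the genotype label WT/prototroph, and no treatment separates them. Per the labels' protocols, a colony grown overnight in YPED at 30 °C was brought to an optical density of 0.1 in a 10 mL culture and grown to between 0.5 and 1.0. The RNA was made into libraries with a strand-marking kit and read as single reads of 65 bp. Of 5189 gene models counted, 5042 had enough counts to be tested. With 1 strain per cell type, an effect of strain and an effect of cell type cannot be told apart. The headers call the libraries biological replicates, but no label says that they came from separate cultures, so p-values measure the spread between these libraries.

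In yeasts of this family, cell identity is set by the mating-type locus. Haploid a and alpha cells each express genes for their own pheromone and for the receptor of the other type, and both express a shared set of haploid-specific genes needed for mating. In a/alpha cells a heterodimer made from one regulator of each mating type represses the haploid-specific genes, as worked out in Saccharomyces cerevisiae, and such cells can enter meiosis. The comparison of a with a/alpha cells therefore takes in a-specific and haploid-specific genes together. The files pair no gene name with a model, so the labelled cell types were not checked against marker genes, and models are given by chromosome, start and end as the count table lists them. No source used here names the genome build.

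The libraries differed in depth and in spread. The a libraries held between 6379488 and 8908799 counts, and a/alpha replicates 2 and 3 held 10776548 and 9164901. The first a/alpha replicate held 743244 counts, and 736 of the tested models had under 10 counts there, against 13 to 42 in the other 5 libraries. A count of 3 was worth 4.12 CPM (counts scaled to library size) in that library and at most 0.407 CPM in the other 5, which limits what its low values can show. The first a replicate was the farthest of its group from the group mean in 60.9% of models, and a/alpha replicate 1 in 56.1%. In a chi-square test of counts, a replicate 1 differed from the other a libraries by 57.6 and 78.2 per degree of freedom, and those 2 differed by 13.9. Results that rest on either library are therefore given with and without it.

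Gene models differed in both directions between a and a/alpha cells, and the large changes were mostly higher in a cells. With edgeR's quasi-likelihood test at a Benjamini-Hochberg adjusted p of 0.05, 652 models differed, 12.9% of those tested. Of these, 369 (7.32%) were higher in a cells and 283 (5.61%) were lower. At least 2-fold changes were called for 193 higher models (3.83%) and 66 lower models (1.31%), together 5.14% of those tested. All 3 a libraries lay above all 3 a/alpha libraries for 841 models (16.7%) and below them for 788 (15.6%). Calls of at least 2-fold without such overlap numbered 188 higher (3.73%) and 60 lower (1.19%). These are shares of each library's RNA in bulk cultures, where fewer cells expressing a gene and less RNA per cell cannot be told apart. Scaling by library totals alone, without TMM factors, raised the median over all tested models from 0.02 to 0.21 in log2 fold change and gave 611 higher and 103 lower models, so the split is relative to the scaling. DESeq2 called 411 higher and 418 lower models, and limma 948 and 974. Among calls of at least 2-fold, between 61% and 87.8% were higher in a cells under every setting tried. Without a replicate 1, 1075 models were called (21.2%), 569 higher (11.2%) and 506 lower (9.99%). Without a/alpha replicate 1, 463 were called (9.16%), 292 higher (5.77%) and 171 lower (3.38%).

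**Figure D1:**
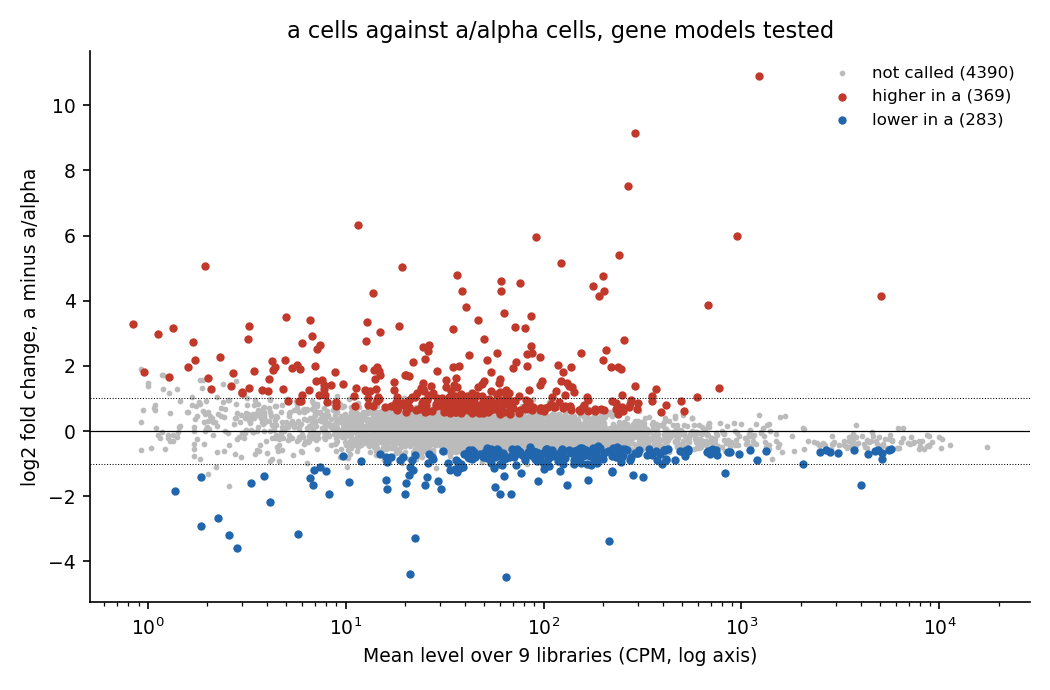
Log2 fold change of a over a/alpha cells against mean CPM over 9 libraries (log axis), with 1 point per tested gene model and called models in colour. The largest changes lie above 0, up to 10.88, and below 0 they reach -4.49.

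Most changes were small, and in the fit reported here the direction of the called ones turned with their size. The absolute log2 fold change of all tested models had a median of 0.27, and called models had medians of 1.03 when higher and -0.76 when lower. Under 1.5-fold, 13 called models were higher and 40 lower. Between 1.5- and 2-fold the directions were close, with 163 higher and 177 lower. Between 2- and 4-fold there were 124 higher and 56 lower models. Past 4-fold, 69 were higher and 10 lower, so that 87.3% of the calls of that size were higher in a cells. That share lay between 81.4% and 93.0% under every setting tried, including scaling by library totals and each library left out. At 16-fold or more, 21 models were higher and 2 lower.

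The largest change was in augustus_masked-SAKL0H-processed-gene-18.122, a model of a single coding part of 294 bp on chromosome H, from 1844663 to 1844956. The a libraries had 2654, 3582 and 4543 CPM of it, and the a/alpha libraries 1.37, 1.03 and 2.90 CPM, from 1, 11 and 27 counts. The groups lay far apart, with a log2 fold change of 10.88 ± 0.46 (SE) and an edgeR adjusted p of 5.12e-09. In the fits without 1 library the log2 fold change lay between 10.36 and 11.72. Per kb of coding length it ranked 14th of 5042 models in a cells, at 12222 CPM per kb, and 4659th in a/alpha cells, at 6.01 CPM per kb.

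Next was a model on chromosome B from 153832 to 155205 (augustus_masked-SAKL0B-processed-gene-1.17), at 797, 782 and 1018 CPM in a cells. In a/alpha cells it stood at 0, 1.68 and 1.5 CPM, from 0, 18 and 14 counts, and the log2 fold change was 9.14 ± 0.29. The 0 is in the shallow library, where a count of 3 would be 4.12 CPM, and the deeper a/alpha libraries carry the low value. Another model, on chromosome H from 2039397 to 2040980, had 863, 667 and 834 CPM against 4.12, 4.40 and 4.19 CPM, a log2 fold change of 7.52 ± 0.22. These 3 models were low in every a/alpha library, the deep ones included, and high in every a library.

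Other models with high levels in a cells changed by a similar order. The model on chromosome B from 201411 to 201764 had 1893, 2514 and 2526 CPM in a cells and 16.5, 34.3 and 47.8 CPM in a/alpha cells, with a log2 fold change of 6.0 ± 0.34. On chromosome G from 1653751 to 1655106, levels were 128, 142 and 156 CPM against 1.37, 2.62 and 2.04 CPM (log2 fold change 5.95 ± 0.23). In both models the lowest a library lay far above the highest a/alpha library. On chromosome B from 410581 to 411792, a cells had 592, 332 and 355 CPM and a/alpha cells 8.23, 11.5 and 9.02 CPM, a log2 fold change of 5.40 ± 0.30. The model on chromosome E from 961219 to 961914 had 199, 275 and 246 CPM against 4.12, 7.86 and 6.01 CPM (5.16 ± 0.32). The 3930 bp model on chromosome A from 894334 to 898263 stood at 532, 605 and 539 CPM against 17.8, 20.6 and 21.5 CPM (4.76 ± 0.19). Its a/alpha libraries were close to each other, the shallow one included.

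The 12 models with the largest rises also held 4 with lower levels in a cells, some with few a/alpha counts or less even a libraries. On chromosome C from 541385 to 541675, a cells had 39.4, 14.3 and 8.29 CPM and a/alpha cells 0, 0.374 and 0.107 CPM. The log2 fold change of 6.32 ± 0.92 rests on 5 a/alpha counts in all, against 480 in a cells, a ratio of 80.5 with a 95% counting interval of 34.3 to 249. Without a replicate 1, the highest a library, the log2 fold change was 5.46. This model lies inside a longer one on the opposite strand that was also higher in a cells, and reads of the pair may not be separated. On chromosome H from 26993 to 27969, levels were 3.79, 4.23 and 3.27 CPM against 0, 0.0936 and 0.107 CPM, from 92 and 2 counts, a ratio of 38.6 (10.4 to 323). The model on chromosome C from 228916 to 229903, which also overlaps an opposite model, had 50, 25.8 and 24.0 CPM against 0, 1.22 and 0.859 CPM (log2 fold change 5.03 ± 0.40). On chromosome B from 512549 to 513643, levels were 77.7, 45.3 and 53.1 CPM against 5.49, 1.78 and 2.04 CPM (4.79 ± 0.32). In these 4 models a and a/alpha libraries did not overlap, which the rule for naming models required.

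Ranked by the difference in CPM rather than by fold, the first model was on chromosome D from 991105 to 992754. It held 8876, 7131 and 7497 CPM in a cells and 217, 622 and 468 CPM in a/alpha cells, and ranked 66th per kb in a cells. The log2 fold change was 4.15 ± 0.32 with an edgeR adjusted p of 1.75e-06, and 3.84 without the shallow library, which was the lowest of the 3. A short model on chromosome G from 681960 to 682298 followed the same order, with 1009, 1609 and 1512 CPM against 79.6, 82.4 and 114 CPM (3.88 ± 0.27). The largest rise on chromosome F, from 524553 to 528101, went from 8.23, 5.99 and 7.73 CPM in a/alpha cells to 133, 202 and 171 CPM in a cells (4.59 ± 0.28). Each of these models kept its call in all 6 fits that left out 1 library.

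Models lower in a cells changed less, and most of the strongest were scarce in a cells. The model augustus_masked-SAKL0C-processed-gene-5.23 lies on chromosome C from 513161 to 513481, where a cells had 11, 5.56 and 5.73 CPM and a/alpha cells 140, 188 and 164 CPM. The log2 fold change was -4.49 ± 0.25, with an edgeR adjusted p of 7.93e-08. On chromosome B from 126269 to 127114 (augustus_masked-SAKL0B-processed-gene-1.12), levels were 2.17, 2.25 and 2.76 CPM against 72.7, 47.3 and 42.2 CPM (-4.40 ± 0.28). For both models every a/alpha library, the shallow one included, lay well above every a library. The model on chromosome C from 24781 to 28587 was the most abundant of the 10 that fell past 4-fold, at 69.3, 49.6 and 35.5 CPM in a cells and 592, 463 and 553 CPM in a/alpha cells (-3.38 ± 0.28). On chromosome E from 710920 to 711582, levels were 5.56, 3.57 and 4.50 CPM against 59, 45.9 and 33.9 CPM (-3.28 ± 0.26).

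Several of the other strong falls were near the floor in a cells. On chromosome G from 4170 to 11697, the a libraries stood at 0.678, 0.529 and 0.409 CPM and the a/alpha libraries at 9.61, 5.90 and 6.44 CPM (log2 fold change -3.59 ± 0.39). Per kb of coding length this was the lowest of the 5042 models in a cells. On chromosome B from 361438 to 362559, levels were 1.22, 1.32 and 1.64 CPM against 17.8, 13.7 and 9.88 CPM (-3.16 ± 0.31). The model on chromosome B from 5700 to 6476 had 0.136, 1.19 and 0.614 CPM against 4.12, 5.62 and 7.09 CPM (-3.20 ± 0.46). On chromosome C from 1248964 to 1249908, a cells had 0.407, 0.529 and 0.205 CPM and a/alpha cells 9.61, 1.87 and 2.79 CPM (-2.92 ± 0.66). There the shallow library was the highest, and the call was lost without a replicate 3 (edgeR adjusted p 0.0558) and without a/alpha replicate 3 (0.0505).

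By difference in CPM the largest fall was on chromosome C from 1228187 to 1229332, an abundant model close to the 2-fold limit. It had 1211, 1329 and 1270 CPM in a cells and 1803, 3266 and 2637 CPM in a/alpha cells, with a log2 fold change of -1.02 ± 0.21. The shallow library was the nearest to the a libraries. On chromosome D from 115957 to 116937, levels were 409, 468 and 512 CPM against 963, 1304 and 1147 CPM (-1.30 ± 0.19). The model on chromosome B from 122306 to 123712 depended on the first a library, which stood at 279 CPM beside 133 and 132 CPM, against 556, 429 and 401 CPM in a/alpha cells. The log2 fold change there was -1.34 ± 0.29, and -1.78 without that library.

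**Figure D2:**
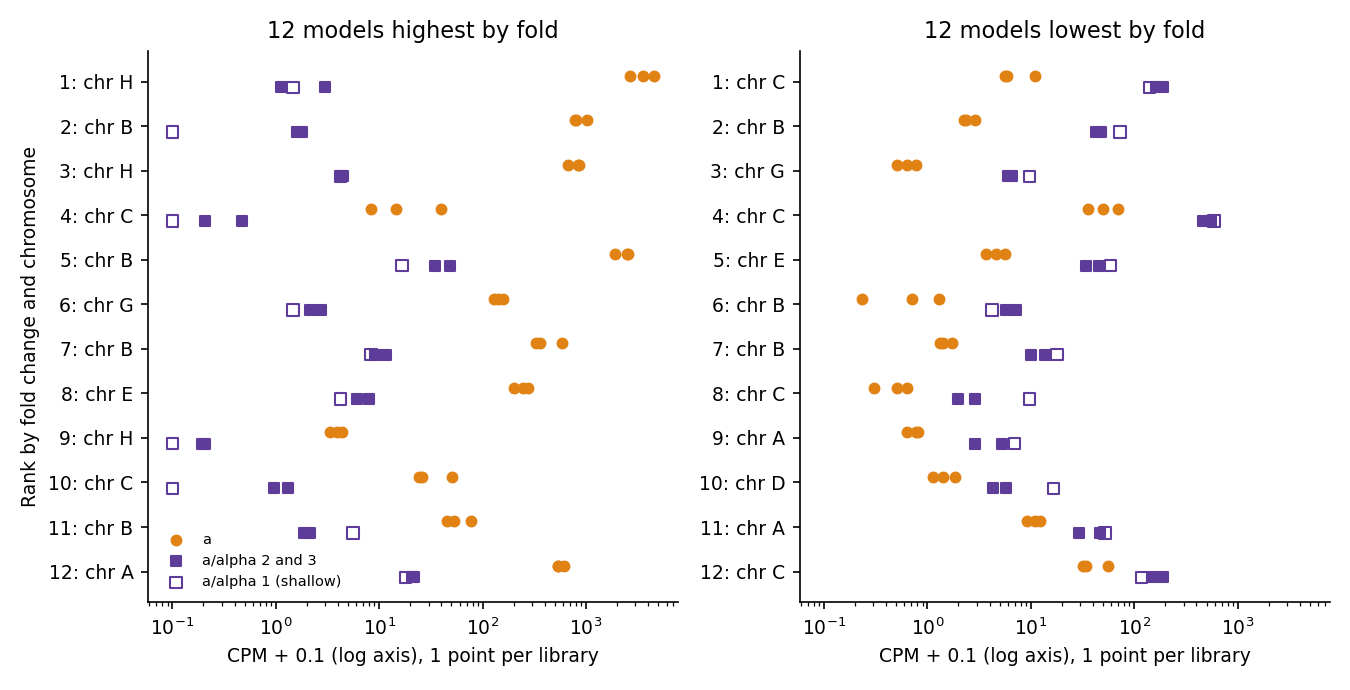
CPM + 0.1 (log axis) in each a and a/alpha library for the 12 models with the largest rises and the 12 with the largest falls in a cells, 1 point per library. The rule for naming models required that the groups not overlap in any of the 24. By the same rule a cells are the low group of each fall and the high group of each rise.

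The mean of the alpha libraries lay between the a and a/alpha means for each of the 12 models with the largest rises. Alpha levels were near a/alpha cells for the model on chromosome H at 2039397 (7.54, 6.69 and 7.98 CPM) and near a cells for that on chromosome G at 1653751 (117, 123 and 150 CPM).

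By selection, a cells are the high side of the higher models and the low side of the lower ones, so abundance is given for each group. Over all tested models the median level was 50.7 CPM in a cells and 47.5 CPM in a/alpha cells. The 193 models at least 2-fold higher in a cells had medians of 49.2 CPM in a cells and 10.9 CPM in a/alpha cells, and 57 of them exceeded 100 CPM in a cells against 10 in a/alpha cells. The 66 models at least 2-fold lower had medians of 17.96 CPM in a cells and 52.6 CPM in a/alpha cells. In the alpha libraries, which are in neither group, the medians of the 193 and the 66 were close, at 28.0 and 29.4 CPM. Among changes of at least 4-fold, the 69 higher models fell to a median of 5.81 CPM in a/alpha cells from 76.2 CPM in a cells. The 10 lower models had 1.38 CPM in a cells and 11.3 CPM in a/alpha cells. Alpha medians were 30.1 CPM for the 69 and 2.20 CPM for the 10. Together, the 193 higher models held 3.91% ± 0.10 of the tested counts of the a libraries (SD, n = 3) and 0.553% ± 0.050 of those of the a/alpha libraries (SD, n = 3). The 66 lower models held 0.479% ± 0.039 and 1.03% ± 0.11 of them. Presence in a single cell type was counted with fixed limits on raw counts. Only the model on chromosome H at 26993 had at least 10 counts in each a library and at most 3 in each a/alpha library. In the other direction, 0 models had at most 3 counts in each a library and at least 10 in a/alpha replicates 2 and 3. Other models came close to these limits. That on chromosome C at 541385 had 291, 108 and 81 counts in a cells against 0, 4 and 1. That on chromosome G at 4170 had 5, 4 and 4 counts against 7, 63 and 60.

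Across quintiles of mean abundance, calls ran in opposite directions. In the lowest quintile 9.42% of models were called higher and 2.68% lower in a cells, and in the highest quintile 5.15% were higher and 11.6% lower. The median log2 fold change went from 0.18 in the lowest quintile through 0.11, 0.06 and -0.02 to -0.18 in the highest. Under library totals alone every quintile moved up together, so the sign within a quintile depends on the scaling while the difference between quintiles does not. The log2 level of the lowest quintile minus that of the highest, centred over the 6 libraries, was 0.27, 0.22 and 0.09 in the a libraries and -0.18, -0.17 and -0.12 in the a/alpha libraries. The groups did not overlap, and their means differed by 0.35 (exact two-sided permutation p = 0.1, the smallest that 3 against 3 allows, and 0.3 after Benjamini-Hochberg adjustment over 3 such comparisons). The difference was 0.31 without a replicate 1 and 0.34 without the shallow library. With quintiles drawn from the alpha libraries, which are in neither group, it was 0.34 (exact p = 0.1).

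**Figure D3:**
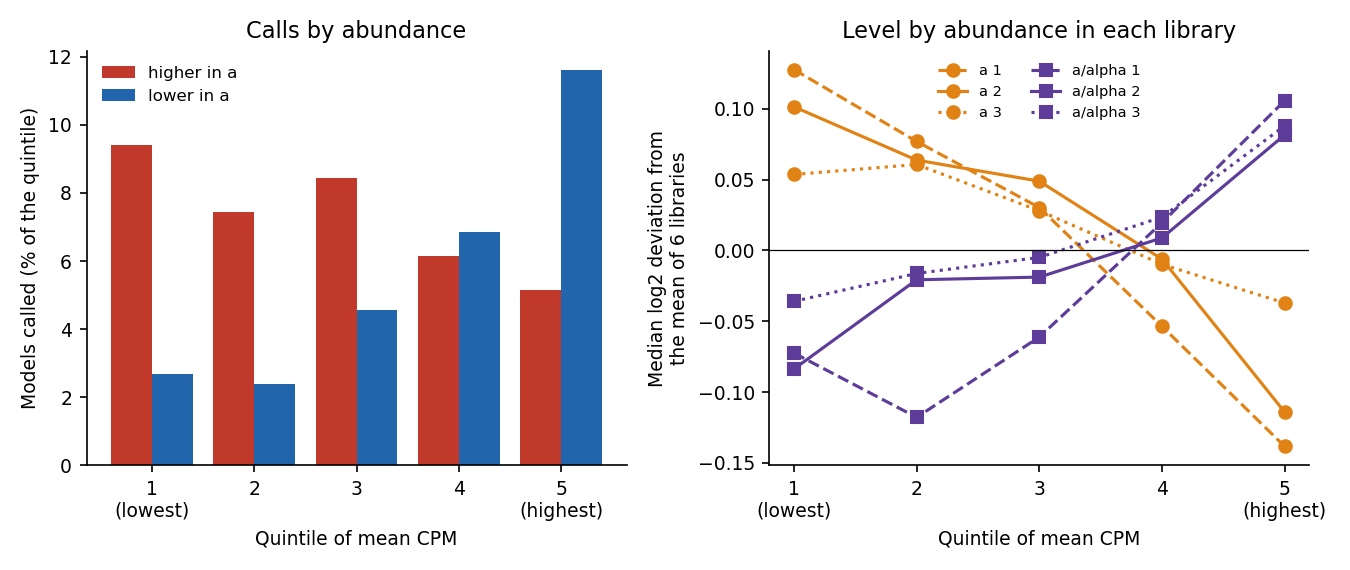
Share of models called higher and lower in a cells (percent) in each quintile of mean CPM, and the median log2 deviation of each quintile in each of the 6 libraries. Higher calls go from 9.42% to 5.15% and lower calls from 2.68% to 11.6% from the lowest to the highest quintile, and the a and a/alpha libraries slope in opposite ways.

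Large rises were found at all levels of abundance but were most frequent among scarce models. Of the 193 models at least 2-fold higher in a cells, 74 were in the lowest quintile and 33, 32, 28 and 26 in the following ones. The 66 models at least 2-fold lower were spread more evenly over these quintiles, with 19, 14, 10, 10 and 13. That contrast was absent with quintiles drawn from the alpha libraries. There the 193 numbered 75, 36, 33, 28 and 21, and the 66 numbered 27, 11, 8, 8 and 12. The lowest of those quintiles held 38.9% of the 193 and 40.9% of the 66. The many lower calls in the highest quintile were therefore mostly under 2-fold.

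Called models lay on all 8 chromosomes. Chromosome H had 81 higher (8.13%) and 40 lower (4.02%) models of 996, and chromosome D 44 (8.01%) and 21 (3.83%) of 549. Chromosome A had 28 higher (6.44%) and 37 lower (8.51%) of 435. Of all tested models 7.32% were higher and 5.61% lower. These balances depend on the setting. Without a replicate 1, chromosome A had 45 higher (10.3%) and 43 lower (9.89%) models, beside 11.2% and 9.99% of all models. Chromosome C had 34 (6.09%) and 32 (5.73%) in the fit of all libraries, and 34 (6.09%) and 177 (31.7%) without a replicate 1. With DESeq2, chromosomes A, B, C and G each had more lower than higher calls, and all tested models had 411 higher and 418 lower. On chromosome A the changes of at least 2-fold were 12 higher and 13 lower, and on chromosome H 41 higher and 6 lower, of 193 and 66 in all. The plus strand held 185 higher (7.36%) and 135 lower (5.37%) models, and the minus strand 184 (7.28%) and 148 (5.85%), near the shares of all tested models.

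The first 1 Mb of chromosome C differed more among the a libraries than between the cell types. Its 448 models had a median log2 deviation of 0.51 in a replicate 1 but of -0.43 and -0.38 in a replicates 2 and 3. In the a/alpha libraries it was 0.21, 0.10 and 0.05. The a libraries thus lay on both sides of the a/alpha libraries, and the means differed by -0.22 (exact two-sided permutation p = 0.4, adjusted p = 0.6 over 3 comparisons). In the rest of the genome every library lay between -0.03 and 0.04. In the region 27 models (6.03%) were called higher and 25 (5.58%) lower, near the 7.32% and 5.61% of all tested models. Without the shallow library they were 21 (4.69%) and 8 (1.79%), beside 5.77% and 3.38% of all models. Without a replicate 1 they were 25 (5.58%) and 170 (37.9%), beside 11.2% and 9.99% of all models. The median log2 fold change of the region then went from -0.15 to -0.52. Several named models lie in this region, among them those on chromosome C at 513161, 24781 and 541385.

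Within 30 kb of the outermost models of a chromosome, lower calls were frequent at some ends and absent at others. Of 124 models there, 14 (11.3%) were higher and 19 (15.3%) lower, beside 7.32% and 5.61% of all tested models. These positions make up 2.46% of the models tested, and they held 12 (6.22%) of the 193 models at least 2-fold higher and 13 (19.7%) of the 66 at least 2-fold lower. Without a replicate 1 the calls were 15 (12.1%) and 21 (16.9%), beside 11.2% and 9.99% of all models, so higher calls were then near the general share. Without the shallow library they were 12 (9.68%) and 17 (13.7%), beside 5.77% and 3.38% of all models. Models near the ends were scarcer, with a median of 19.4 CPM against 50.9 CPM farther in. Within the lowest quintile of abundance, 15.6% of 64 models near the ends were lower against 1.80% of 945 farther in, and 12.5% were higher against 9.21%. By end, the high end of chromosome A had 6 lower models of 9, its low end 3 of 9, and the high end of chromosome C 4 of 7. Most of the 19 lower calls lay at these ends. No other end had more than 2, and both ends of chromosomes D, F and H had none. At the low end of chromosome E, 3 of 9 were higher and 1 lower. The library medians over all end models lay between -0.07 and 0.07 and overlapped between the groups.

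**Figure D4:**
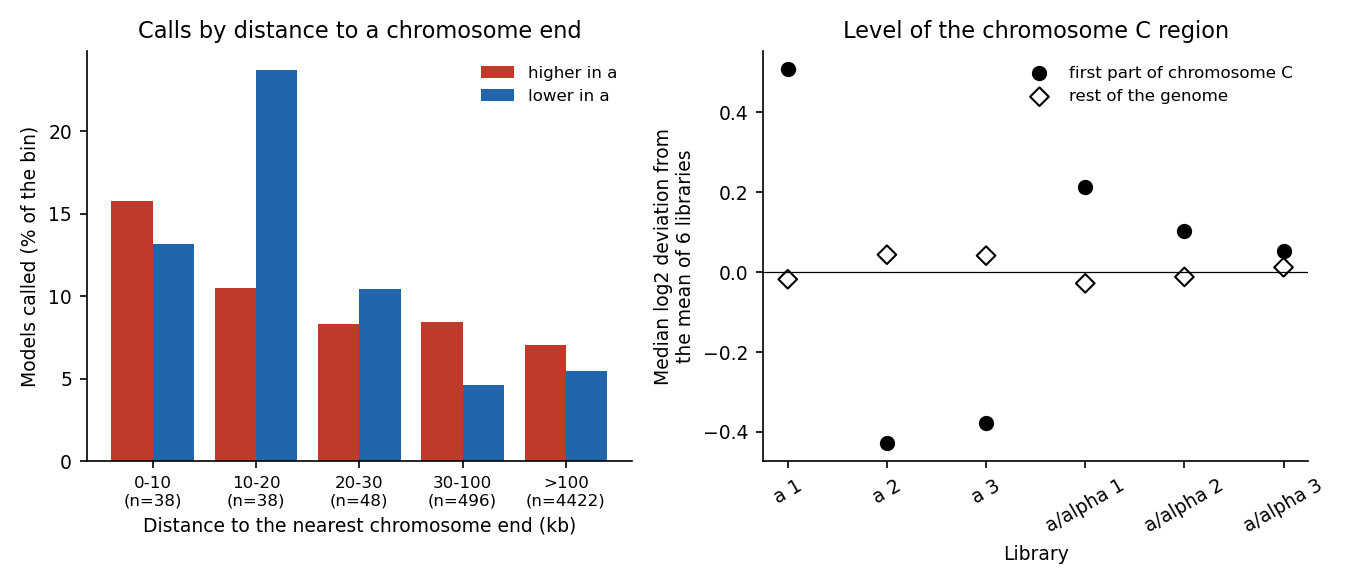
Share of models called higher and lower in a cells (percent) by distance to the outermost model of the chromosome (kb), and the median log2 deviation of the first 1 Mb of chromosome C in each of the 6 libraries. Lower calls reach 23.7% between 10 and 20 kb and 5.45% past 100 kb, and a replicate 1 stands at 0.51 where a replicates 2 and 3 are below 0. Most lower calls near the ends lay on chromosomes A and C.

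The longest run of neighbouring called models in the same direction held 6 models near the high end of chromosome A, from 930346 to 944293, a span of 13.9 kb. All 6 were lower in a cells, with log2 fold changes from -2.68 to -1.22. The model from 932882 to 933841 had 44.3, 24.5 and 24.7 CPM in a cells and 81.0, 154 and 109 CPM in a/alpha cells (-1.92 ± 0.29). The model from 934819 to 935423 had 5.15, 4.10 and 2.76 CPM against 9.61, 13.1 and 12.8 CPM (-1.65 ± 0.28), and in neither model did the groups overlap. The first 2 of the run, starting at 930346 and 930830, overlap on opposite strands and may share reads. The model from 937609 to 938535 was the exception: its a libraries stood at 108, 65.0 and 61.4 CPM and the shallow a/alpha library at 103 CPM, inside their range. Its call (-1.22 ± 0.31) was lost in 4 of the 6 fits without 1 library, and that of the last model of the run, from 942782 to 944293, in 1.

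A run of 4 lower models lay inside chromosome E, from 706739 to 714489, and held the named fall at 710920. Its other members changed little, with log2 fold changes of -0.90 ± 0.15, -0.88 ± 0.22 and -0.83 ± 0.17, and the second of these, starting at 708214, lost its call in 5 of the 6 fits without 1 library. Of 9 runs of 3 models, 5 were higher and 4 lower. One of the higher runs, on chromosome C from 537764 to 542772, held the overlapping pair at 539308 and 541385. The longer model of that pair had 223, 86.7 and 83.1 CPM against 6.86, 5.71 and 5.26 CPM (4.54 ± 0.45), and at 3.94 on the log2 scale without a replicate 1. Its neighbour from 537764 to 538357 had 228, 97.4 and 101 CPM against 35.7, 39.3 and 32.1 CPM (1.99 ± 0.35).

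Among neighbouring called models, divergently transcribed pairs most often changed in the same direction. Among 4969 adjacent pairs that do not overlap, both models were called in 113, and 78 of these (69.0%) changed in the same direction, while 54.4% of all adjacent pairs had fold changes of the same sign. For divergent pairs the count was 28 of 32 (87.5%), beside 56.7% of all divergent pairs. For pairs on the same strand it was 34 of 59 (57.6%), and for convergent pairs 16 of 22 (72.7%). The divergent count was 68 of 79 without a replicate 1, 18 of 19 without the shallow library, and 25 of 28 outside the first 1 Mb of chromosome C. The difference between orientations was not tested. Around the 12 models with the largest rises, 5 of 22 flanking models were called, all of them higher, where 12.9% of all tested models were called and 7.32% were higher. Around the 12 with the largest falls, 8 of 20 were called, 5 lower and 3 higher, where 5.61% of all tested models were lower.

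Calls were also counted by model structure. In the longest quintile of coding lengths 8.23% of models were higher and 2.38% lower, and in the shortest quintile 6.70% and 4.14%. Without a replicate 1 the order of both shares was the reverse, with 9.61% higher and 7.83% lower in the longest quintile and 12.9% and 6.40% in the shortest. The level of the longest quintile minus that of the shortest was 0.40 in a replicate 1 but -0.04 and -0.22 in the other a libraries, and -0.08, 0.05 and -0.13 in the a/alpha libraries, which it overlapped (exact two-sided permutation p = 0.8). Of 396 models with under 400 bp of coding sequence, 32 (8.08%) were higher and 16 (4.04%) lower. Of 680 with several coding parts 39 (5.74%) were higher and 37 (5.44%) lower. All tested models had 7.32% and 5.61%. The shares of the short models depended on the libraries. Without a replicate 1, 61 (15.4%) were higher and 26 (6.57%) lower, beside 11.2% and 9.99% of all models. Without the shallow library they were 29 (7.32%) and 7 (1.77%), beside 5.77% and 3.38%. Of 138 models that overlap another on the opposite strand, 6 (4.35%) were higher and 10 (7.25%) lower, and 11 and 28 (20.3%) without a replicate 1, when 11.2% and 9.99% of all models were. In 48 such pairs the shorter model lay inside the longer one, and in 40 of them the shorter had more CPM per kb in the mean level, with a median ratio of 1.95. The fold changes of the 2 members correlated at 0.95 across these pairs, a description over models that share a position, and the strands of such pairs cannot be told apart here.

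The shallow a/alpha library had few counts for many of the models that were low in a/alpha cells. Of the 193 models at least 2-fold higher in a cells, 108 (56%) had under 10 counts in it and 19 had 0. Of the 66 lower models, 15 had under 10 counts and 0 had none. The library lay below all 3 a libraries for 188 of the 193 and above all 3 for 61 of the 66. It was part of the fit that called these models, so its side there is no separate support. By the same measure it lay beyond the a libraries for 3085 of all 5042 tested models. With all libraries thinned to 743244 counts, 378 models were called, 204 higher and 174 lower, and 338 of them were among the 652.

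Calls were made again without each of the 6 libraries in turn. In every one of these fits 256 of the 652 models (39.3%) were called, 179 higher and 77 lower. They included 147 (76.2%) of the 193 models at least 2-fold higher, 43 (65.2%) of the 66 at least 2-fold lower and 66 (16.8%) of the 393 called under 2-fold. The number called was 334 without a replicate 2, 414 without a replicate 3, 352 without a/alpha replicate 2 and 351 without a/alpha replicate 3. None of the 652 was called in the opposite direction under any setting tried. The authors' deposited table calls 692 of 5163 models (13.4%). All 44 models named by rule were called in it, and their log2 fold changes differed from those given here by at most 0.37. The 44 were chosen from the same series, so this is not an independent check, and the design of that table is not stated.

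**Figure D5:**
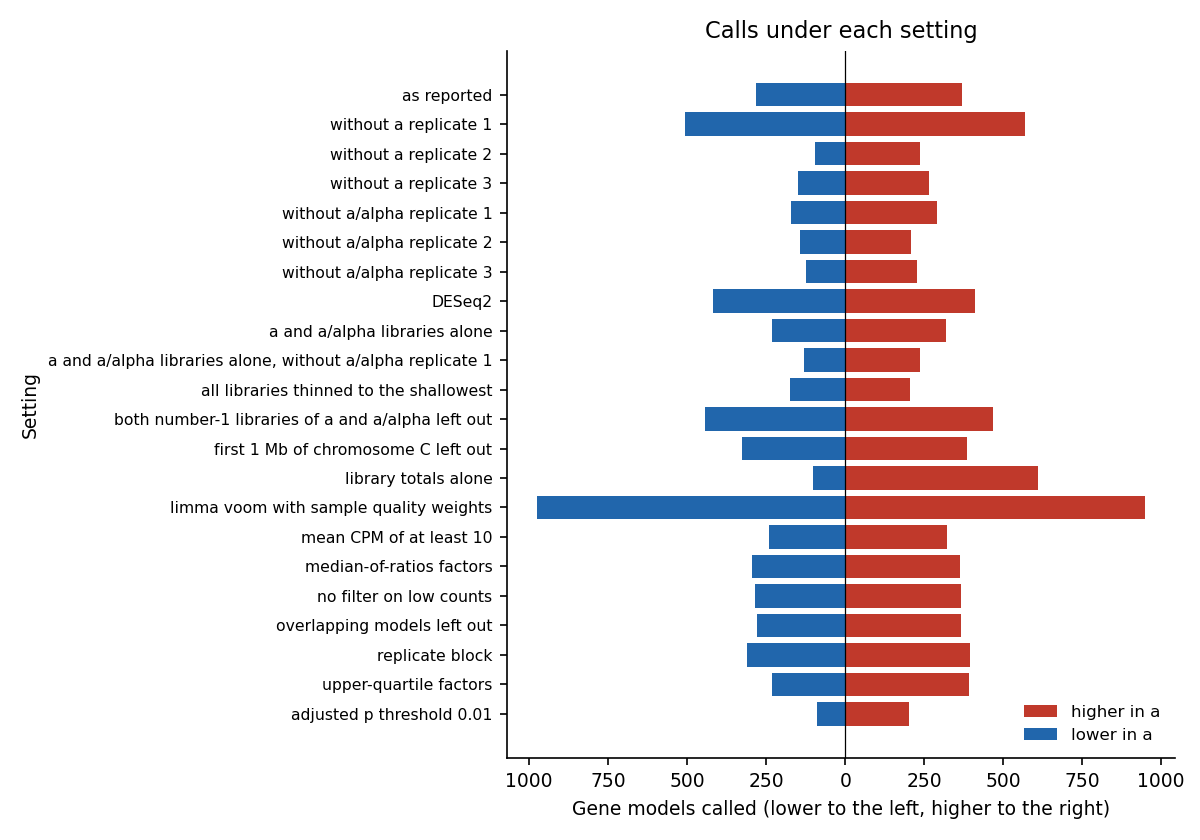
Number of gene models called higher (right) and lower (left) in a cells under each setting, with bars starting at 0. The as-reported bars are 369 and 283, and scaling by library totals alone gives 611 and 103.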

How the data were processed

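The authors deposited read counts per gene model. Per the file headers, featureCounts 2.0.1 with strand setting 1 counted the reads of 65 bp that fell on coding sequence (CDS). No option for reads that map to several places was set, and the alignment paths name fastp and STAR. Whether the strand setting matches the strand-marking kit was not checked, and the counts of all models depend on it. No source used here names the genome build. For each model the authors' deposited table of a against a/alpha cells lists p-values before and after adjustment, a log2 fold change and its error, a mean signal and a score. The submitters' processing notes name DESeq2. The alpha table was not used here.

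The deposited counts of all 9 libraries entered a quasi-likelihood fit in edgeR 4.0.16 (R 4.3.3), after filterByExpr and with TMM factors, and p-values were Benjamini-Hochberg adjusted with a threshold of 0.05. The 147 models filtered out held 0.00512% of the counts. The biological coefficient of variation was 18%. CPM values use library totals times TMM factors, and standard errors, taken as the fold change over the root of F, are approximate. Library medians use log2(CPM + 1), and their tests are exact two-sided permutation tests over 3 against 3 libraries. Counting intervals are exact at 95% and cover counting error only.

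Named models were called, changed at least 2-fold and did not overlap between groups. They were the 12 largest fold changes and 6 largest CPM differences in each direction, the largest on each chromosome, and members of the 3 longest runs, whatever their size. Members, lists and rules were chosen with earlier results of these data known. Planned lists of named genes were not used, since the files pair no names with models. Alternatives used DESeq2 1.42.0 and limma 3.58.1, and scripts were tested on simulated data.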

Additional observations from a re-analysis of the deposited data

How the results depend on the processing

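Models given by rule number 44, and 38 kept their direction and call under all 21 alternatives in which they were tested, while 6 lost the call in at least 1 (20 of 896 values) and none turned direction. The count of 652 called models was 378 with all libraries thinned to the shallowest, 1922 with limma voom and sample quality weights, 290 at an adjusted p of 0.01, and 365 with a and a/alpha libraries alone without a/alpha replicate 1. For higher models (369) these settings gave 204, 948, 202 and 236, and for lower models (283) 174, 974, 88 and 129. Library totals alone gave 611 higher (85.6% of its calls, against 56.6%) and 103 lower models. Without both number-1 libraries 444 were lower. Leaving out 1 library gave 334 to 1075 called, 209 to 569 higher and 96 to 506 lower. Models at least 2-fold lower (66) numbered 39 with library totals, 111 with limma, 131 without both number-1 libraries, and 46 to 131 without 1 library, the highest without a replicate 1. Models at least 2-fold higher (193) stayed within 1.5 times, at 162 to 225 without 1 library. The difference for the first 1 Mb of chromosome C was -0.50 to -0.06 without 1 library. Other filters, DESeq2 (829 called), median-of-ratios and upper-quartile factors left the count of calls within 1.5 times. The causes were not tested. Both settings without number-1 libraries beyond leaving out 1 were chosen after seeing the data, as were quintiles drawn from the alpha libraries.

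With the replicate number as a block, 706 models were called, 394 higher and 312 lower, and 562 were among the 652. Deviations of same-numbered a and a/alpha libraries correlated at 0.096, -0.001 and 0.145, not all above 0.1, and no label states a pairing, so the libraries share only a number. Not every library correlated best with its own number. A/alpha replicate 1 limits levels below 4.12 CPM.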
